A study of Mus musculus with 16 samples.

Results

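The baseline gene expression of the normal mouse skull vault was described from the calvaria of 4 wild-type (WT) mice, the 4 of 16 arrays in the study whose genotype label reads WT. All 4 mice were male and were taken at postnatal day 7, and the labels name no strain, transgene or treatment. Per the study design each genotype comprised 4 mice, so each array stands for 1 animal. The other 3 genotypes of the study were mice with 1 functional Runx2 allele (R-Het), mice without Axin2 (A-KO) and mice that combine these changes (A-KO R-Het). They enter here only where the spread between arrays of 1 genotype was measured again, and no difference between genotypes was formed. All 16593 named genes on the array were ranked by their mean level over the 4 WT arrays and by their spread between these arrays.

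The flat bones of the calvaria form by intramembranous ossification, in which osteoblasts arise directly from mesenchyme and lay down a collagen matrix that then mineralizes, while osteoclasts of blood cell origin resorb it. The plates meet at fibrous sutures, whose mesenchyme holds the progenitors for further growth. Around and within the plates lie periosteum, dura mater, vessels, small marrow spaces and cartilage that borders the vault, and the temporal and occipital muscles attach to its outer face. A dissected calvaria can carry any of these tissues, so markers of each were read alongside the bone genes.

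Levels are given as log2 of the probe intensity, as mean ± SD over the 4 WT arrays (n = 4) where a mean is printed. Their rank is given as a percentile among the named genes, with 1 probe per gene, the one with the highest mean. Probes differ in how strongly they bind their target, so a percentile ranks probe brightness and not the number of transcripts. In a whole-tissue sample, fewer cells of a type and less RNA per cell cannot be told apart. As a reference for probes without signal, 1197 olfactory and vomeronasal receptor genes were used, whose 95th percentile lay at a log2 intensity of 6.47. Of the 16593 named genes, 9607 lay above this reference (57.9%). The median intensity of the WT arrays lay between 93.1 and 95.5 on the linear scale and the small number of mice limits how precise any value is. The labelled sex was matched by the sex-linked genes, with the Y-linked genes Eif2s3y, Kdm5d and Uty at 10.30 ± 0.15, 7.99 ± 0.13 and 7.12 ± 0.05 and Xist, which is transcribed from an inactive X chromosome, at 6.56 ± 0.17.

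Bone matrix genes stood among the brightest probes of the calvaria. Of the 20 genes with the highest mean, 7 belonged to the bone lists, namely Bglap, Col1a2, Sparc, Serpinf1, Ctsk, Bglap2 and Col1a1, and 6 encoded ribosomal proteins, namely Rplp1, Rps20, Rpl41, Rps12, Rpl38 and Rpl10. The others were Mmp13, the collagenase of hypertrophic chondrocytes and osteoblasts, Hba-a1, an alpha globin gene, Igf2, a fetal growth factor, Dcn, the collagen-binding proteoglycan decorin, Egr1, an immediate early transcription factor, Ppic, a cyclophilin, and Hspa8, a constitutive chaperone. Their means lay between 14.27 for Col1a1 and 14.62 for Rplp1. Rplp1, the brightest, read 14.48, 14.45, 14.78 and 14.77 on WT replicates 1 to 4. Neighbours in the order differed by less than their SD, so the order within these 20 is not resolved. Mmp13 stood at 14.48 ± 0.24, but its other probes averaged 11.67 and 8.77, so its place rests on 1 of its probes. The other probe averaged 9.80 for Rpl38, 11.11 for Hspa8, 12.53 for Ppic, 13.43 for Dcn and 14.31 for Sparc.

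The osteoblast matrix and mineral list lay higher than any other list of marker genes examined. All 23 measured members were above the reference, 21 lay in the top 10% of named genes, and the median percentile was 98.2. Col1a1 and Col1a2 encode the chains of type I collagen, the bulk protein of bone, and stood at 14.27 ± 0.23 and 14.45 ± 0.35. Col1a2 read 14.47, 13.95, 14.74 and 14.63 on the 4 arrays, with replicate 2 lowest. Bglap encodes osteocalcin, a late product of mature osteoblasts, and stood at 14.47 ± 0.22. Its other probes averaged 10.42 and 14.36, and Bglap2 is a near-identical copy at 14.30 ± 0.32, so the copies cannot be told apart by these probes. Ibsp, the bone sialoprotein gene, read 14.10, 13.36, 13.95 and 13.73. Sparc, a collagen-binding glycoprotein, stood at 14.45 ± 0.18. Further down stood Alpl (11.36 ± 0.11), the alkaline phosphatase that frees phosphate for mineral, and Ifitm5 (11.97 ± 0.10), a membrane protein of mineralizing osteoblasts. The lowest member was Phospho1, a phosphatase of matrix vesicles, at 8.05 ± 0.24 and percentile 69.9. Omd, the osteomodulin gene, varied least between arrays in this list (11.35 ± 0.03).

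The promoter of Bglap is shown because this gene led the bone lists. It spans chr3:88384417-88384716 on the minus strand of GRCm38.p6, from 250 bases before to 50 after the RefSeq gene start, written 5′ to 3′. Capitals mark the letters CANNTG, the E box bound by basic helix-loop-helix factors, which was searched on both strands and occurs in 72.3% of all 32851 mouse promoters of this length, so a match is a description only.
Bglap: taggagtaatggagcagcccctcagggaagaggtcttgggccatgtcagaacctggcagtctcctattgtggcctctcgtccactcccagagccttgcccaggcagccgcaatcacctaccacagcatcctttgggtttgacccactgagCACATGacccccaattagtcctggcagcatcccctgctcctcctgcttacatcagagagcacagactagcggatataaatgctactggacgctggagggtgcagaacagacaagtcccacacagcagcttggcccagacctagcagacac

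Transcription factors and receptors that act in osteoblasts were spread more widely. Of 11 measured osteoblast regulators, 10 lay above the reference and 3 in the top 10%, with a median percentile of 87.2. Sp7, the zinc finger factor required for osteoblast differentiation, was the brightest at 12.73, 12.58, 13.03 and 12.79. Vdr, the vitamin D receptor, stood at 11.15 ± 0.29, Bmpr1a, a BMP receptor, at 10.17 ± 0.07, and Pth1r, the parathyroid hormone receptor, at 10.02 ± 0.11. Dlx5, a homeobox gene of early osteoblasts, was near the middle of all genes at 6.79 ± 0.19. Lef1, a nuclear effector of Wnt signalling, lay below the reference at 6.18 ± 0.13. Atf4, a stress-responsive factor needed for collagen synthesis, varied most, with 10.12, 10.26, 10.20 and 9.004, and replicate 4 stood below the other arrays.

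Osteocytes are osteoblasts that have become embedded in the matrix, and most of their listed genes were above the reference. Of 9 measured, 8 lay above the reference, with a median percentile of 73.2. Pdpn, expressed as the cell extends its processes, stood at 11.74 ± 0.13, and Phex, a peptidase that restrains Fgf23, at 11.16 ± 0.19. Mepe and Dmp1, matrix phosphoproteins of mineralizing osteocytes, stood at 9.65 ± 0.22 and 8.35 ± 0.42. Sost, the Wnt antagonist sclerostin of mature osteocytes, read 6.47, 6.46, 6.36 and 6.63, so its 4 values lay on both sides of the reference. Fgf23, the phosphate-regulating hormone, stood at 6.44 ± 0.13, below the reference. Neither value shows that the transcript was absent.

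Of the 18 genes of the osteoclast list, 16 lay above the reference, against 57.9% of all named genes, with a median percentile of 79.2. The list also holds Csf1, Tnfrsf11b and Tnfsf11, which are signals that govern osteoclast formation. Ctsk, the protease cathepsin K that digests bone collagen, read 14.37, 13.88, 14.68 and 14.50, and Mmp9, a gelatinase, stood at 13.58 ± 0.11. Tcirg1, a subunit of the proton pump that acidifies the resorption pit, stood at 10.61 ± 0.14 and Acp5, the tartrate-resistant acid phosphatase, at 9.09 ± 0.18. Among signals that govern osteoclast formation, Csf1 stood at 8.71 ± 0.07, the receptor Tnfrsf11a (RANK) at 8.47 ± 0.16, its decoy Tnfrsf11b (osteoprotegerin) at 8.28 ± 0.08 and its ligand Tnfsf11 (RANKL) at 8.22 ± 0.26. Calcr, the calcitonin receptor, was at the reference (6.47 ± 0.27). Atp6v0d2, a pump subunit that osteoclasts are known to express strongly, was at 5.83 ± 0.16, percentile 1.98, so its probe gave no signal above the reference.

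Cartilage genes were present at middling to high levels. Of 25 measured, 21 lay above the reference and 4 in the top 10%, with a median percentile of 65.1. Col2a1, the collagen that defines cartilage, stood at 12.14 ± 0.94, and Col9a2, which decorates its fibrils, at 10.37 ± 0.99. Matn4 and Matn1, adaptor proteins of the cartilage matrix, stood at 12.17 ± 0.07 and 11.16 ± 1.24, and Acan, the aggrecan gene, at 9.25 ± 0.45. The other probes of Matn4 averaged 8.37 and 8.93, so its place rests on 1 of its probes. Sox9, the master regulator of chondrocytes, was at 7.83 ± 0.31. Col10a1, the collagen of hypertrophic cartilage, read 6.49 ± 0.06, at the reference, and Ihh, the hedgehog ligand of prehypertrophic cells, 6.73 ± 0.15. Cnmd, the chondromodulin gene, was below it at 5.95 ± 0.07. The brightest members thus belonged to the collagen and matrix lists. Of 9 chondrocyte regulators 0 lay in the top 10%, but 9 genes are too few to set this apart from the 10% of all genes.

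Suture genes, many of them mutated in craniosynostosis, sat above the middle of the range. The median SD of the 21 suture genes above the median level was 0.14, near that of all genes above that level. Of 27 measured, 23 lay above the reference and 3 in the top 10%, with a median percentile of 65.1. Zic1, a zinc finger factor of suture mesenchyme, read 10.61, 10.92, 10.56 and 10.74. Twist1, the helix-loop-helix factor that keeps suture cells undifferentiated, read 10.11, 10.29, 10.46 and 10.30. Efnb1, the ephrin whose loss causes craniofrontonasal syndrome in humans, read 10.29, 10.21, 10.22 and 10.55. These were the suture genes in the top 10%. Prrx1 and Msx1, homeobox genes of cranial mesenchyme, stood at 9.49 ± 0.07 and 9.09 ± 0.18, while Msx2 and Six2 stood at 6.69 ± 0.11 and 7.02 ± 0.11. Among ligands and receptors, Tgfb3 stood at 9.91 ± 0.14, Tgfb2 at 9.27 ± 0.04, Fgfr2 at 8.72 ± 0.19 and Fgfr1 at 7.71 ± 0.24. Gli1, a target of active hedgehog signalling and a marker of suture stem cells, was below the reference at 6.09 ± 0.18, and so was Grem1, a BMP antagonist, at 6.28 ± 0.15. The BMP antagonist Nog stood at 7.51 ± 0.26.

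Fibrous and periosteal matrix genes were bright as well. Of 19 measured, 16 lay above the reference and 9 in the top 10%, with a median percentile of 81.7. Dcn stood at 14.40 ± 0.15, Lum, the proteoglycan lumican, at 13.48 ± 0.10, Col3a1, a collagen of loose connective tissue, at 13.32 ± 0.13, and Ogn, osteoglycin, at 12.75 ± 0.06. Postn, the periostin gene named for the periosteum, was at 7.46 ± 0.26. Of the tendon genes, Scx stood at 7.67 ± 0.11 and Mkx at 8.51 ± 0.29, and Tnmd was below the reference at 6.17 ± 0.18. Kera, the keratocan gene, varied most, with 8.42, 7.60, 7.46 and 8.37, and replicates 1 and 4 were the higher arrays.

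Marrow genes ranged from the brightest to the dimmest probes by lineage. Of 82 measured, 60 lay above the reference and 12 in the top 10%, with a median percentile of 61.1. Among red cell genes, Hba-a1 stood at 14.47 ± 0.22, Slc4a1, the anion exchanger of red cells, at 11.10 ± 0.39 and Alas2, which starts haem synthesis in erythroblasts, at 9.64 ± 0.29. Among neutrophil genes, S100a8 and S100a9, which form the abundant cytosolic protein calprotectin, stood at 12.65 ± 0.46 and 11.68 ± 0.40, and the granule genes Camp and Mpo at 10.10 ± 0.40 and 9.46 ± 0.31. All 10 macrophage genes lay above the reference, led by Lyz2 at 10.75 ± 0.27. Of 14 B cell genes, 10 lay above it, led by Vpreb1, whose product stands in for the light chain in pre-B cells, at 8.32 ± 0.22. T and NK cell genes gave 0 of 9 above the reference, the brightest being Klrb1c at 6.40 ± 0.20, with Cd3e at 6.22 ± 0.09. Pf4, a platelet chemokine, stood at 10.58 ± 0.21. Of the niche factors, Cxcl12, which retains blood stem cells, stood at 11.66 ± 0.13, while Kitl was below the reference at 6.01 ± 0.11. The other probes averaged 8.68, 8.35, 5.89 and 5.72 for Cxcl12. They averaged 6.54 and 7.02 for Mpo, so the levels of both genes rest on the brightest probe.

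Skeletal muscle genes were among the bright probes as well, and they differed most between mice. Of 43 measured, 36 lay above the reference and 11 in the top 10%, with a median percentile of 73.6. Myl1, a myosin light chain of fast fibres, stood at 13.69 ± 1.04, Acta1, skeletal alpha actin, at 13.23 ± 1.26 and Myh8, the perinatal myosin heavy chain, at 12.39 ± 1.44. The regulators of the lineage were dimmer. Myf6 and Myog, factors of differentiating fibres, stood at 6.99 ± 0.70 and 6.90 ± 0.41, and Myod1, Myf5 and Pax7, which mark myoblasts and satellite cells, lay below the reference at 6.21 ± 0.19, 6.04 ± 0.09 and 5.91 ± 0.08. The myosin heavy chains Myh7 and Myh4, of slow and of fast glycolytic fibres, were below it too, at 6.12 ± 0.06 and 5.99 ± 0.20.

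Markers of other tissues that could adhere to the dissected bone were mostly dim. Vessel genes were the exception, with 8 of 9 endothelial and 5 of 6 smooth muscle genes above the reference. The endothelial list was led by Egfl7 at 11.04 ± 0.24 and Esam, a junction protein, at 10.83 ± 0.12. Acta2, the actin of smooth muscle and activated fibroblasts, stood at 13.05 ± 0.20. Of 12 skin and hair genes, 3 lay above the reference, and the defining keratins of the basal layer, Krt5 and Krt14, were below it at 6.17 ± 0.07 and 6.05 ± 0.11, although Krt10 stood at 9.18 ± 0.15. Of 8 brain and nerve genes, 2 lay above it, Mbp (8.01 ± 0.68), a myelin protein, and Stmn2 (6.92 ± 0.31), with Gfap, of astrocytes, at 6.10 ± 0.12. Of 8 meningeal genes 4 did, led by Cldn11 at 10.58 ± 0.17, and of 7 adipocyte genes 2 did. For genes of liver, pancreas, testis, eye, lung and kidney the count was 1 of 14, which was Tnp2 at 6.58 ± 0.24.

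Immediate early genes respond within minutes to stimulation and to tissue handling. The list of immediate early and heat shock genes had a median percentile of 95.9 over 13 genes. Fos read 14.19, 13.83, 14.32 and 14.47, and Egr1 read 14.41, 14.13, 14.46 and 14.46. The median SD of the list was 0.16. Nr4a1 went the other way, at 5.95 ± 0.02. Of 14 cell cycle genes, 11 lay above the reference, led by the replication factor Mcm6 at 10.06 ± 0.25. Whether handling bears on the immediate early levels was not tested.

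**Figure D1:**
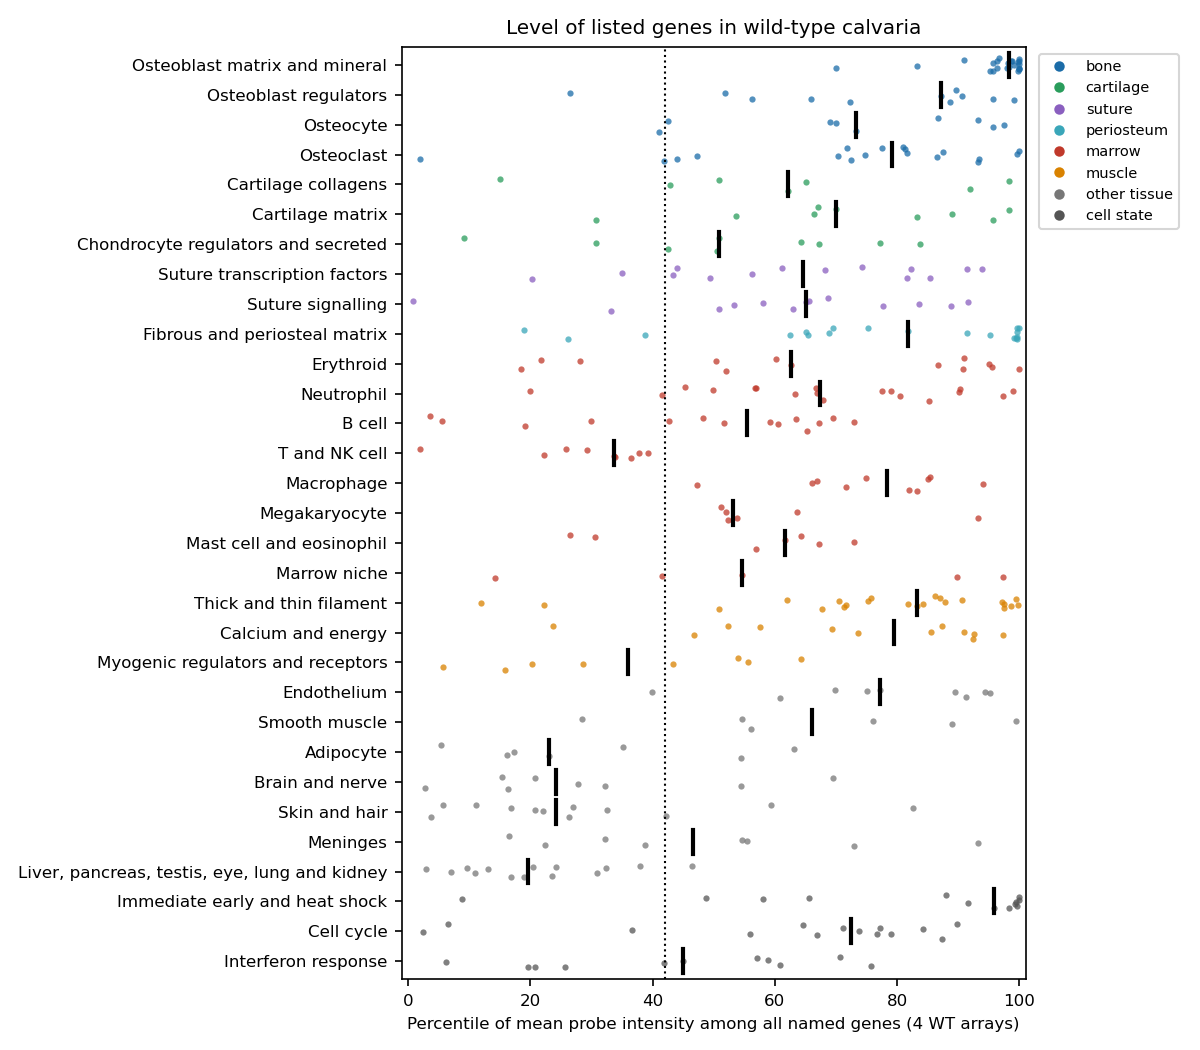
Each point is 1 gene, placed by the percentile of its mean probe intensity among the 16593 named genes over the 4 WT arrays (horizontal axis, percent) and by gene list (vertical axis), with colour for the tissue group, a black bar for the list median and a dotted line for the level of the receptor reference. The osteoblast matrix list has its median at 98.2, and all T and NK cell genes lie left of the dotted line.

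Spread was measured as the SD of log2 intensity over the 4 WT arrays for the 9101 genes with a mean above the median of all probes, which is 6.55. The median SD was 0.14, a 1.10-fold difference. An SD from 4 arrays is imprecise, and its chi-square 95% interval runs from 0.566 to 3.73 times the value. Of the 9101 genes, 199 had an SD above 0.5 (2.19%) and 55 above 1 (0.604%). Of these 55 genes, 25 belonged to the skeletal muscle lists. The 100 genes with the largest SD, 1.1% of those kept, ended at 0.733, and the next gene stood at 0.726. They held 25 muscle list genes, 4 cartilage genes, 2 marrow genes, 1 interferon gene and 0 genes of the bone, suture or periosteum lists. The other 68 were in no list. Among the 9101 genes the lists held 35 muscle, 19 cartilage, 59 marrow, 5 interferon, 55 bone, 21 suture and 16 periosteal genes. The lists were chosen with earlier results of these data known, so counts by list are a description only.

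Of the muscle genes that passed the level filter, 30 of 35 had an SD above 0.5, with a median SD of 1.22. Without WT replicates 1 and 3 together, the arrays with the higher muscle values, 2 of them did and the median SD was 0.22. In that setting 13 genes of any kind in place of 55 exceeded 1. It was chosen after the values were seen, and leaving out the high arrays lowers the muscle spread by construction, so this is a description only. The median SD was 0.31 for 19 cartilage genes, 0.27 for 59 marrow genes, 0.19 for 55 bone genes, 0.14 for 21 suture genes and 0.13 for 16 periosteal genes. The suture and periosteal groups thus lay near the value for all genes, 0.14, and the bone group lay above it. In the bone lists 1 of 55 genes, Atf4, exceeded 0.5. The brightest bone genes, such as Col1a2 and Col1a1, lay near the highest intensity of each array, which can narrow their spread. Their SDs, 0.35 for Col1a2 and 0.23 for Col1a1 against a median of 0.14 for all genes kept, may therefore understate how much they varied.

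**Figure D2:**
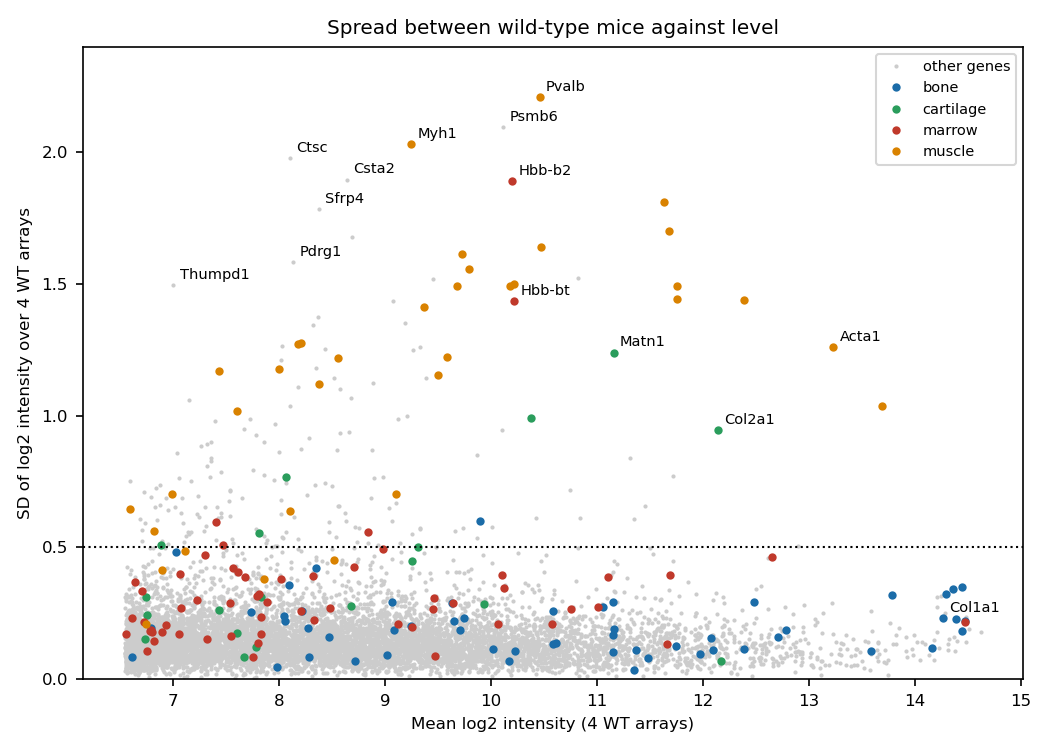
Each point is 1 of the 9101 genes above the median level, with its mean log2 intensity (horizontal axis) and the SD of log2 intensity over the 4 WT arrays (vertical axis). Coloured points are genes of the bone, cartilage, marrow and muscle lists, grey points are all other genes, suture and periosteum included, and the dotted line marks an SD of 0.5. Muscle genes fill the upper range, while Col1a1 at 14.27 has an SD of 0.23. Col1a1 lies near the highest intensity of each array, which can narrow its spread.

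Muscle genes were high on WT replicates 1 and 3 and low on replicates 2 and 4. The mean of the 35 genes read 10.03, 8.37, 10.50 and 8.30 on the 4 arrays, a 4.60-fold range. Each chip held a high and a low array, since replicates 1 and 2 shared chip 1 and replicates 3 and 4 shared chip 2. Pvalb, the calcium buffer parvalbumin of fast fibres, read 11.48, 8.85, 13.08 and 8.42, which spans 25.2-fold and is the largest SD of all genes kept (2.21). Myh1, the heavy chain of fast fibres of type IIx, read 10.12, 8.29, 11.60 and 6.97. Mylpf, the fast regulatory light chain, read 12.86, 10.25, 13.51 and 9.93. In these genes replicates 1 and 3 both lay above replicates 2 and 4, with replicate 3 highest.

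Genes of calcium release and energy supply followed the same arrays. Atp2a1, the calcium pump of fast fibres, read 12.51, 10.56, 13.65 and 9.99, a 12.7-fold range. Mb, which encodes the oxygen store myoglobin, read 10.87, 8.99, 12.61 and 9.42, and Ckm, muscle creatine kinase, read 10.57, 8.66, 11.56 and 8.11. Acta1 read 14.02, 12.22, 14.59 and 12.09, so this bright gene also ranged over 5.65-fold. The SDs of the troponin genes were unequal. The fast genes Tnnc2, Tnnt3 and Tnni2 had SDs of 1.49, 1.49 and 1.44, and the slow genes Tnnt1, Tnnc1 and Tnni1 had 0.70, 0.38 and 0.21. The slow genes also had dimmer probes, and the difference in spread was not tested. Tnnc1 read 8.30, 7.48, 7.61 and 8.05, which puts replicate 3 among the lower arrays.

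Chrna1, a subunit of the acetylcholine receptor at the contact of nerve and muscle, read 8.60, 6.56, 8.35 and 6.91, with replicate 1 highest. Muscle genes outside the lists were found among the 100 genes of largest SD as well, such as Sypl2, a protein of the membrane junctions where calcium is released, with 10.30, 8.35, 11.14 and 7.99, and Tpm2, a tropomyosin, with 11.83, 9.57, 12.41 and 9.46. Another probe of Tpm2 read 10.52, 10.49, 10.54 and 10.27, and with all its probes averaged the SD was 0.65 in place of 1.52. The mean of the smooth muscle list ranged over 1.04-fold. Its brightest gene, Acta2, had an SD of 0.20, and 2 of its other probes, at 10.99, 10.57, 11.13 and 10.47 and at 9.87, 9.55, 9.86 and 9.48, had replicates 1 and 3 above replicates 2 and 4. Mbp, the myelin gene, was high on the same arrays as muscle, at 8.41, 7.34, 8.76 and 7.53, but its other probes, at 7.23 ± 0.09 and 6.31 ± 0.10, were not. Whether the amount of attached muscle bears on these values was not tested.

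Promoters of 3 muscle genes that moved together are shown, each from 250 bases before to 50 after the RefSeq gene start in GRCm38.p6 and written 5′ to 3′. Acta1 lies at chr8:123894726-123895025 on the minus strand, Ckm at chr7:19410844-19411143 on the plus strand and Mylpf at chr7:127211358-127211657 on the plus strand. Capitals mark the E box (CANNTG, the letters bound by the myogenic helix-loop-helix factors) and the CArG box, bound by serum response factor, both searched on both strands. Of the 30 muscle genes with an SD above 0.5, 22 had a promoter in the table, and 19 of these held an E box (86.4%), against 72.3% of all 32851 promoters. The CArG box was found in 2 of 22 (9.09%), against 1.63% of all. Matches are a description of these letters and not of binding.
Acta1: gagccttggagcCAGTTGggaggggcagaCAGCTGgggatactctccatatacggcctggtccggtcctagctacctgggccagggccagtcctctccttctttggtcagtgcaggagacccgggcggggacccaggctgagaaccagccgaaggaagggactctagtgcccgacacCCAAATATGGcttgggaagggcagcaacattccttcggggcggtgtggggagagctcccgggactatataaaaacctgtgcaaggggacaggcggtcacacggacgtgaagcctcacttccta
Ckm: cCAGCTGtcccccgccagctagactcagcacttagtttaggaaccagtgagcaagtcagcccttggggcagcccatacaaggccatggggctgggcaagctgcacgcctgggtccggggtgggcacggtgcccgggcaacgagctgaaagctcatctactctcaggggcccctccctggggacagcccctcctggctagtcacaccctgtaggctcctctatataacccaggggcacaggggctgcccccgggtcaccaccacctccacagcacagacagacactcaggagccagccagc
Mylpf: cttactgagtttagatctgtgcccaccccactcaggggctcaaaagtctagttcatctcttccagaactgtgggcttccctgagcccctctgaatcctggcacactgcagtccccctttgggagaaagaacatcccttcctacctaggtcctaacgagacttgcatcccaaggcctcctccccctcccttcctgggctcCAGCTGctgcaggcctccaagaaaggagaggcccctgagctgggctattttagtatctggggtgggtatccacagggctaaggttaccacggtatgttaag
Acta1 holds 2 E boxes and 1 CArG box in this window, and Ckm and Mylpf hold 1 E box each.

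Among cartilage genes WT replicate 3 stood low and replicate 2 high. Their mean over 19 genes read 8.61, 9.002, 8.19 and 8.78, a 1.76-fold range. Matn1 read 11.12, 12.38, 9.47 and 11.65, a 7.56-fold range. Col2a1 read 12.30, 13.09, 10.83 and 12.32, and its other probe read 11.94, 12.78, 10.64 and 11.90, in the same pattern. Col9a2 read 10.75, 11.13, 8.92 and 10.69, and Ucma, a small secreted protein of cartilage, read 8.05, 8.69, 6.98 and 8.52. Matn4 did not follow these genes, at 12.16, 12.07, 12.21 and 12.23. Of the 19 genes, 7 had an SD above 0.5, and 2 did without replicate 3. The array lowest in cartilage genes was the one highest in muscle genes, and whether these are connected was not tested.

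Interferon response genes were highest on WT replicate 4. The mean of the 5 members above the median level read 7.70, 7.35, 7.22 and 8.36, a 2.20-fold range. Rsad2, the antiviral enzyme viperin, read 8.38, 8.01, 7.97 and 9.82, and Usp18, which removes the ubiquitin-like protein Isg15, read 7.20, 6.57, 6.55 and 8.01. Without replicate 4 the SD of Rsad2 was 0.23 in place of 0.87, so its spread rests on that mouse.

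White blood cell lists differed between the arrays as well. Neutrophil genes read a mean of 8.75, 9.01, 8.51 and 8.46 over 16 genes, with replicate 2 highest, and S100a8 read 12.71, 13.28, 12.26 and 12.35. Macrophage genes were highest on the same array, at a mean of 8.58, 8.92, 8.55 and 8.70. B cell genes were highest on replicate 3, at a mean of 7.44, 7.47, 7.77 and 7.25. Mast cell and eosinophil genes read 8.03, 7.59, 7.74 and 7.21, with Prg2, the eosinophil major basic protein, at 8.03, 7.75, 7.12 and 6.71. The range of the list mean was 1.46-fold for neutrophil, 1.44-fold for B cell and 1.29-fold for macrophage genes. It was 1.14-fold to 1.23-fold in the 4 bone lists, and 1.07-fold and 1.13-fold in the suture lists.

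**Figure D3:**
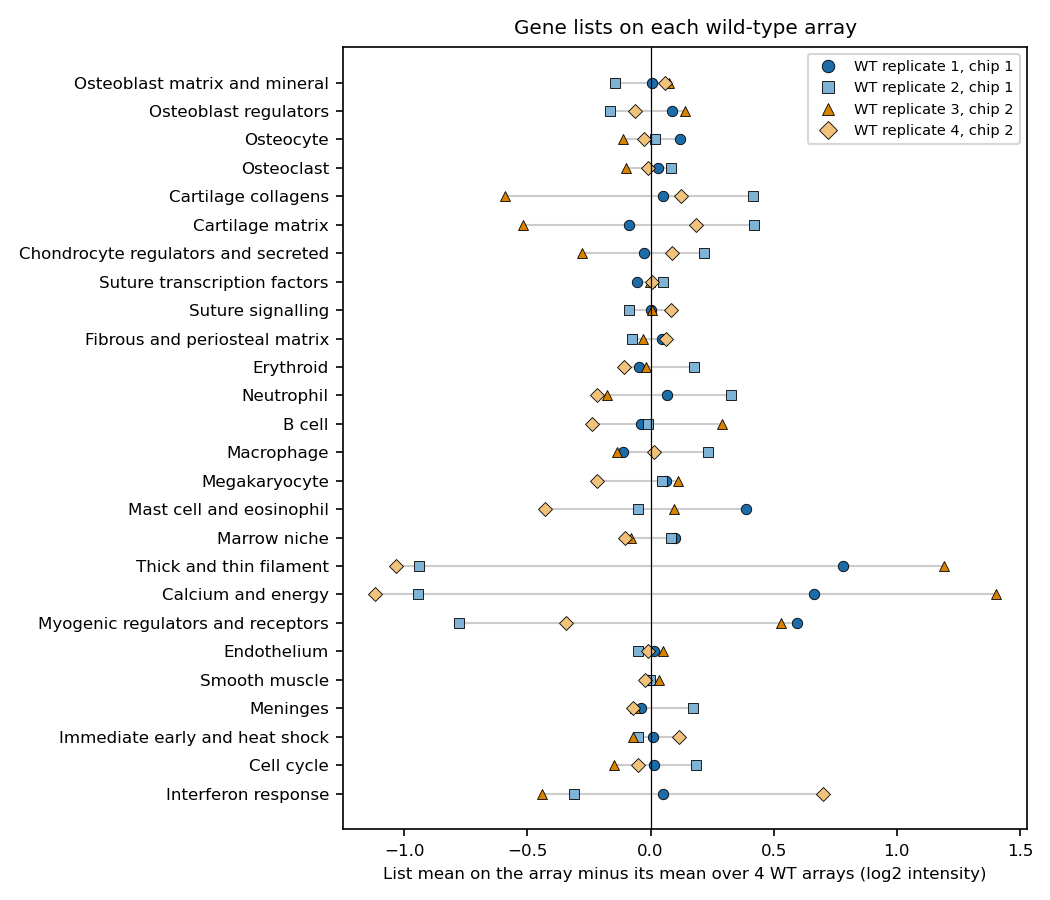
Each row is a gene list with at least 3 members above the median level, and each symbol is 1 of the 4 WT arrays, placed at the mean log2 intensity of the list on that array minus its mean over the 4 arrays (horizontal axis). The muscle lists have replicates 2 and 4 below and replicates 1 and 3 above their mean, the cartilage lists have replicate 3 lowest, and the interferon list has replicate 4 highest at 0.70.

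Of the 20 genes with the largest SD, 10 were in the muscle lists and the muscle genes Sypl2 and Tpm2 were outside them, which leaves 8. Psmb6, a catalytic subunit of the proteasome, read 7.05 on replicate 1 against 11.61, 10.50 and 11.29 on the others, and without replicate 1 its SD was 0.57 in place of 2.09. Ctsc, the lysosomal protease that activates granule enzymes, read 6.50, 10.13, 6.31 and 9.46. Its other probes read 6.27, 8.56, 6.33 and 8.01 and 5.69, 8.93, 6.10 and 8.11, so all 3 probes put replicates 2 and 4 above replicates 1 and 3. Csta2, a stefin that inhibits such proteases, read 6.23, 10.44, 8.08 and 9.82. It belongs to a cluster of near-identical copies, of which Stfa1 read 11.11, 12.78, 11.19 and 11.78 and Csta3 read 7.43, 9.12, 7.62 and 8.10, all with replicate 2 highest.

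Beta globin genes gave opposite patterns for near-identical copies. Hbb-b2 read 11.40, 7.39, 10.80 and 11.21, with replicate 2 lowest, and Hbb-bt read 9.88, 12.33, 9.24 and 9.42, with replicate 2 highest. As background, mouse strains carry different haplotypes of the adult beta globin genes, with Hbb-b1 and Hbb-b2 in one and Hbb-bs and Hbb-bt in another. Without replicate 2 the SDs of Hbb-b2 and Hbb-bt were 0.31 and 0.33. The alpha globin gene Hba-a1 read 14.55, 14.16, 14.67 and 14.50, near the highest intensity of each array, which can narrow its spread. Its SD of 0.22, against a median of 0.14 for all genes kept, may therefore understate how much it varied. Which copy each probe reads is uncertain, and no cause was tested.

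Sfrp4, a secreted Wnt antagonist of bone, read 9.60, 9.56, 8.53 and 5.80, so replicate 4 lay below the receptor reference. Without replicate 4 its SD was 0.61 in place of 1.78. Pdrg1 read 5.85 on replicate 1 and 9.14, 8.26 and 9.27 on the others, and without replicate 1 its SD was 0.55 in place of 1.58. Thumpd1, an adaptor of tRNA acetylation, read 9.20 on replicate 2 and 6.60, 6.28 and 5.91 on the others, and without replicate 2 its SD was 0.34 in place of 1.50. The uncharacterized gene 6330403K07Rik read 10.52, 7.41, 9.69 and 7.12, with replicates 1 and 3 above replicates 2 and 4 as in the muscle genes.

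Across all 15 undamaged arrays of the study, several of these genes took either a low or a high value with few between. For Ctsc no array lay between 6.61 and 9.04, with 8 arrays below and 7 above, and 2 WT arrays on each side. For 6330403K07Rik no array lay between 7.66 and 9.53, with 7 below and 8 above. For Thumpd1 the gap ran from 6.60 to 8.42, with 10 below and 5 above. For Pdrg1 and Sfrp4 the gaps ran from 6.07 to 8.21 and from 6.02 to 8.04, each with 3 below and 12 above. For Psmb6 the low value of WT replicate 1 stood alone, and the other 14 arrays lay at 10.28 or higher. The muscle genes showed narrower gaps than the genes just named, the widest being 1.71 for Pvalb. Csta2 and Hbb-b2, which are not muscle genes, had narrow gaps as well, at most 0.86 and 1.44.

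**Figure D4:**
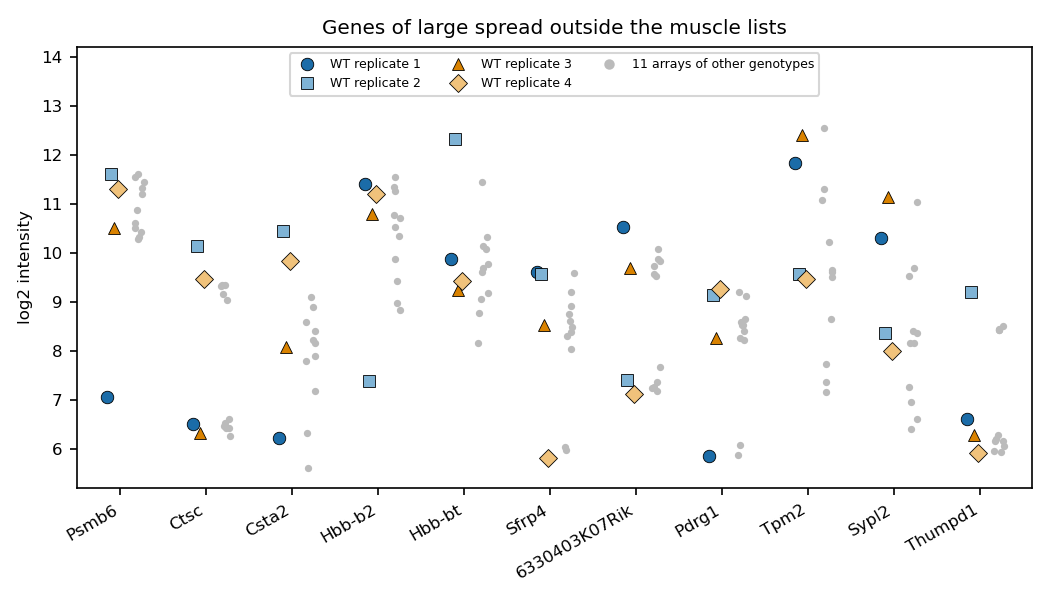
Log2 intensity (vertical axis) of the 10 genes outside the muscle lists that were among the 20 of largest SD, and of Hbb-bt. Large symbols are the 4 WT arrays and grey points are the 11 undamaged arrays of the other genotypes. For Ctsc the 15 values form a low and a high set with no value between 6.61 and 9.04.

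The genes that varied between WT mice varied within the other genotypes too. In the 11 undamaged arrays of those genotypes, 212 of 9101 genes (2.33%) had an SD above 0.5 within genotype. Of the 100 genes with the largest SD in WT, 91 did. These arrays were not used to choose the genes. The muscle lists had a median SD of 1.27 there, and the cartilage lists 0.34. The remaining 9 genes were Col9a2, Erdr1, Ankrd23, Samd12, Cuedc1, Csta3, Znhit3, Map4k5 and H4c6. Samd12 read 7.12, 6.96, 7.10 and 8.63 in WT, and the arrays of the other genotypes lay between 6.43 and 7.13. Cuedc1 read 8.23, 6.70, 8.18 and 8.32, and the other genotypes lay between 7.81 and 8.55. In both a single WT mouse lay outside the range of the other 14 arrays. Erdr1, a gene of the pseudoautosomal region of the sex chromosomes, read 7.66, 9.60, 9.47 and 9.77, and the other genotypes lay between 8.29 and 9.64. The difference in spread between WT and the other genotypes was not tested.

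The chip was the only technical batch that the labels name, and each chip held 2 WT arrays. A limma comparison of chip 2 with chip 1 over the 4 WT arrays called 0 of 9101 genes (0%), with a smallest adjusted p of 0.827. At an unadjusted p under 0.05 there were 474 genes, near the share of 0.05 that chance alone gives. With 2 arrays per chip, small differences between chips can be missed. The brightest probes nevertheless differed by chip in 1 direction. In 19 of the 20 brightest genes both chip 2 arrays lay above both chip 1 arrays, against 1651 of the 9101 genes kept (18.1%). Sparc, for example, read 14.28 and 14.30 on chip 1 and 14.61 and 14.60 on chip 2. The highest intensity on an array was 24005 and 22344 on chip 1 and 28330 and 27932 on chip 2, on the linear scale.

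At the other end, the 10 genes with the smallest SD were Usp19, Cltb, Stat6, Tfb1m, C030006K11Rik, Gng4, Gars, Tpd52l2, Foxj3 and P3h2, with SDs from 0.0038 to 0.012. Gars, the glycyl tRNA synthetase, was the brightest of them, at 12.45, 12.47, 12.45 and 12.47. Usp19, a deubiquitinating enzyme, read 7.59, 7.58, 7.58 and 7.58. They span dim to bright levels and were ranked by this measure, so their small SDs are a description only.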

How the data were processed

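The deposited series matrix holds probe intensity values that the authors had normalized, on a linear scale and from single-colour Illumina bead arrays. The labels' protocols name TRIzol extraction and 200 ng of total RNA per array. The background correction and normalization behind these values are not given in the sources used here. Intensities were taken to log2. Another table, with 32 columns of signals and detection p-values, was left out because its column names match no sample label.

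Of 25697 probes, 23978 have 1 gene symbol in the platform annotation and 1719 none. The brightest of a gene's probes stood for it. Genes with a mean above the median of all probes (9101) entered the spread and the chip test, which used limma 3.58.1 under R 4.3.3 with Benjamini-Hochberg adjustment at 0.05 and was tested on simulated data. Of 417 listed genes in 32 lists, 363 were measured. The members and lists were chosen with earlier results of these data known. Genes were named as list members, the 20 highest in mean, the 20 largest and 10 smallest in SD, and their near-identical copies. The remaining genes named among the 100 of largest SD (those with an SD of 0.5 or less in the other genotypes) were chosen after their values were seen. Replicates were numbered in record order. The array labelled damaged was left out. Promoters are from RefSeq, GRCm38.p6. Runx2 is not analysed here. Alternatives were a pseudocount of 50, quantile normalization, median centring, the mean of all probes, other level filters, SD within chip and leaving out each array.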

Additional observations from a re-analysis of the deposited data

Results flagged for a closer look

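Each value here stood apart from the other 3 WT arrays by Dixon's ratio, the gap to the nearest value divided by the whole range, above its 95% critical value. Chance flags about 1 in 20 such groups, and 7 of the 168 genes named and checked met it, no more than that share. Some of the genes, Hbb-b2, Cuedc1, Erdr1, Map4k5 and Samd12 among them, were named for their large SD in these arrays. The count is therefore a description only. Atf4, a stress-responsive factor of osteoblasts, read 9.004 on replicate 4 against 10.12 to 10.26 on the others (log2 intensity). Egr1, an immediate early gene, read 14.13 on replicate 2 against 14.41 to 14.46. Hbb-b2, a beta globin gene, read 7.39 on replicate 2 against 10.80 to 11.40. Cuedc1 read 6.70 on replicate 2 against 8.18 to 8.32. Map4k5, a kinase, read 7.71 on replicate 2 against 6.12 to 6.37. Erdr1 read 7.66 on replicate 1 against 9.47 to 9.77. Samd12 read 8.63 on replicate 4 against 6.96 to 7.12. Among 33 lists and tissue groups, the mean of the 4 meningeal genes above the median level stood apart, at 8.37 on replicate 2 against 8.13 to 8.16.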

How the results depend on the processing

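The median percentile of each tissue group moved by less than its spread between arrays under the pseudocount, quantile normalization, median centring and each left-out array. Ranked only among genes above the median level, it was 87.6 for bone, 40.3 for cartilage, 43.0 for suture, 87.7 for periosteum and 40.2 for marrow, by the construction of that ranking. With the mean of all probes it was 60.5 for cartilage, 60.9 for suture and 86.1 for periosteum. Among genes above the 75th percentile of level, 110 genes had an SD above 0.5, since fewer genes were counted. The median SD of muscle genes was 1.08 with the pseudocount of 50, 1.44 above the 75th percentile, 1.48 within chip and 1.06 to 1.37 with 1 array left out. Without WT replicates 1 and 3 together, an alternative chosen after seeing the data, it was 0.225, with 2 muscle genes above an SD of 0.5 and 13 genes of any kind above 1. The chip comparison called 0 to 3 genes with 1 array left out, 3 without replicate 1 and 1 without replicate 3. Of the 100 genes of largest SD, 80 to 90 were shared with the ranking after 1 array was left out. With all probes averaged, 14 of the 20 brightest genes were shared. No paired analysis was possible because the replicate numbers follow the order of records and 1 genotype was described. Without detection p-values, levels near the receptor reference cannot be called present or absent.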
